A study of Mus musculus with 14 samples.

Results

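The dentate granule cell marker genes were 8 genes, Prox1, Dsp, C1ql2, Lct, Tdo2, Npnt, Dock10 and Calb1, taken by gene name from both RNA-seq count tables of the series. All 8 were found among the 26570 genes listed for 5 libraries of resting (basal) mice and among the 25933 genes listed for 9 libraries of a learning experiment, and all 8 passed the low-count filter in both tables. Their raw read counts ran from 104 for Tdo2 to 14065 for C1ql2 over the 14 libraries.

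Every library was poly(A) RNA of the dorsal hippocampus of 8-month-old male C57BL6/J mice, either WT or THY-Tau22. THY-Tau22 mice are heterozygous for a mutated human Tau transgene under the Thy1.2 promoter, which is active in neurons at large and not in granule cells alone. The basal experiment held 3 WT and 2 THY-Tau22 libraries. In the learning experiment, mice received 3 injections, 1 per week, of saline (WT), of the carrier CSP alone at 500 μg per mouse (TAU VEH), or of CSP-TTK21 at 500 μg per mouse (TAU MOL). CSP is a carbon nanosphere, and TTK21 is an activator of the histone acetyltransferases CBP and p300. The WT VEH group and both groups of injected THY-Tau22 mice, with 2 libraries each, had 3 days of spatial training in a water maze, and tissue was taken 1 h after the last trial, while WT VEH_HC mice (n = 3) stayed in their home cage. WT mice received saline and TAU VEH mice CSP, so genotype and vehicle cannot be told apart in the trained groups. The authors left out 3 of 12 libraries of the learning experiment, all from 1 litter, after looking at distances between samples. Replicates are separate samples by their labels, which do not name the animal behind each, and p-values measure the spread between these samples.

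Granule cells are the principal neurons of the dentate gyrus, the entry station of the hippocampus. They receive cortical input, fire sparsely, and send their mossy fibre axons to CA3, and new ones are added in adult life. Prox1 is the homeodomain transcription factor that sets and keeps granule cell identity, and it stays on from the neuroblast to the mature cell. C1ql2 is a secreted C1q-like protein of mossy fibre synapses, and Npnt (nephronectin) is an extracellular matrix ligand of integrins. Dsp (desmoplakin) is a desmosomal protein, Dock10 is a guanine nucleotide exchange factor, and Calb1 (calbindin) is a cytosolic calcium buffer of mature granule cells that CA1 cells and some interneurons also carry. Lct (lactase) and Tdo2 (tryptophan dioxygenase) are enzymes known from gut and liver whose transcripts mark the granule cell layer in the mouse brain.

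On mouse build mm9, 4 of the 8 genes lie on chromosome 1. Prox1 (ENSMUSG00000010175) lies at chr1:191945660-191994559 on the minus strand, C1ql2 (ENSMUSG00000036907) at chr1:122237159-122239748 on the plus strand, Dock10 (ENSMUSG00000038608) at chr1:80497648-80755128 on the minus strand, and Lct (ENSMUSG00000026354) at chr1:130181333-130224895 on the minus strand. Tdo2 (ENSMUSG00000028011) lies at chr3:81761012-81780124 and Npnt (ENSMUSG00000040998) at chr3:132544709-132613255, both on the minus strand. Calb1 (ENSMUSG00000028222) lies at chr4:15808411-15835211 and Dsp (ENSMUSG00000054889) at chr13:38243197-38290446, both on the plus strand. A noncoding RNA, Gm17566, runs on the opposite strand and shares exon bases with the 5' end of Prox1. Its own counts lay between 126 and 340, against 2979 to 6392 for Prox1. The library kit does not mark strand, so reads of the shared bases cannot be told apart. Dsp shares exon bases with Gm10129, which has no line in either count table.

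The 250 bases before the transcription start are shown for Prox1, C1ql2 and Dock10, the genes on which the comparisons of trained mice turn. The sequences are RefSeq promoter windows (GRCm38.p6) placed on mm9 by exact match, written 5' to 3' on the strand of the gene, and capitals mark CAGATG, the E-box form bound by NeuroD factors, read on either strand. The windows are chr1:191994707-191994956 (minus strand) for Prox1, chr1:122236909-122237158 (plus strand) for C1ql2 and chr1:80755129-80755378 (minus strand) for Dock10.
Prox1: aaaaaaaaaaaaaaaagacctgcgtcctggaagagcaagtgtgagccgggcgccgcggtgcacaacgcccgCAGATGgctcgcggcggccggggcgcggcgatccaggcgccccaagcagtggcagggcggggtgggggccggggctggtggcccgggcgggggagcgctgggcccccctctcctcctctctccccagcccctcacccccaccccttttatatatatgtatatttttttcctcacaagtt
C1ql2: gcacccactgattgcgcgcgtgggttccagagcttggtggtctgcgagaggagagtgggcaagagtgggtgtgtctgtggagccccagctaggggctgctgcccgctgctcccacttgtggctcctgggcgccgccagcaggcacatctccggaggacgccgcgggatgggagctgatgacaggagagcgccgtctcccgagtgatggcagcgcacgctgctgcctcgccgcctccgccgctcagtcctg
Dock10: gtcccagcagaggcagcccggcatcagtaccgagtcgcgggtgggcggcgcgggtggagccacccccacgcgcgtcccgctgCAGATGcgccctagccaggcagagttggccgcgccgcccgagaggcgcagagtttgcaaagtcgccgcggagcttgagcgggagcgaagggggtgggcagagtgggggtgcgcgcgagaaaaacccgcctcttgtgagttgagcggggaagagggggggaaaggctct

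The Prox1 window holds CAGATG at position -179, counted from the transcription start, and the Dock10 window at -168, while these letters are not in the C1ql2 window. Of the windows not shown, another one of Dock10 holds CAGATG at -126. The other Prox1 window and those of Lct, Tdo2, Npnt and Dsp do not hold it. CAGATG is in 17.2% of all 32851 RefSeq promoter windows of 300 bases (250 before to 50 after the start). The general E-box CANNTG, of which CAGATG is one form, is in 72.3% of them. RefSeq gave 10 windows for 7 of the 8 genes, and Calb1 had no entry. In none of the 10 windows is the full cAMP response element TGACGTCA (1.79% of all windows) or the AP-1 letters TGANTCA (7.81%), and the letters TGACG (20.8%), which lie inside the full element, are in 1 window of Npnt. These matches describe letters only.

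Per kilobase of exon, C1ql2 was the most abundant of the 8 transcripts and Tdo2 the least in both experiments. Levels are CPM, read counts scaled to a common library size with TMM factors, and only here are they divided by exon length to compare genes. Over the 4 groups of the learning experiment the group means of C1ql2 lay between 69.0 and 119.7 CPM per kb, those of Prox1 between 22.7 and 28.8, and those of Tdo2 between 0.866 and 1.15. Calb1 (12.0 to 15.6), Lct (11.5 to 14.8), Dock10 (6.86 to 9.48), Dsp (7.22 to 7.34) and Npnt (5.70 to 6.77) lay between Prox1 and Tdo2. In the basal table the group means per kb were 97.5 and 102.1 for C1ql2 and 26.3 and 27.0 for Prox1. The tables were counted and scaled separately, so a level is compared only within its table.

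**Figure D1:**
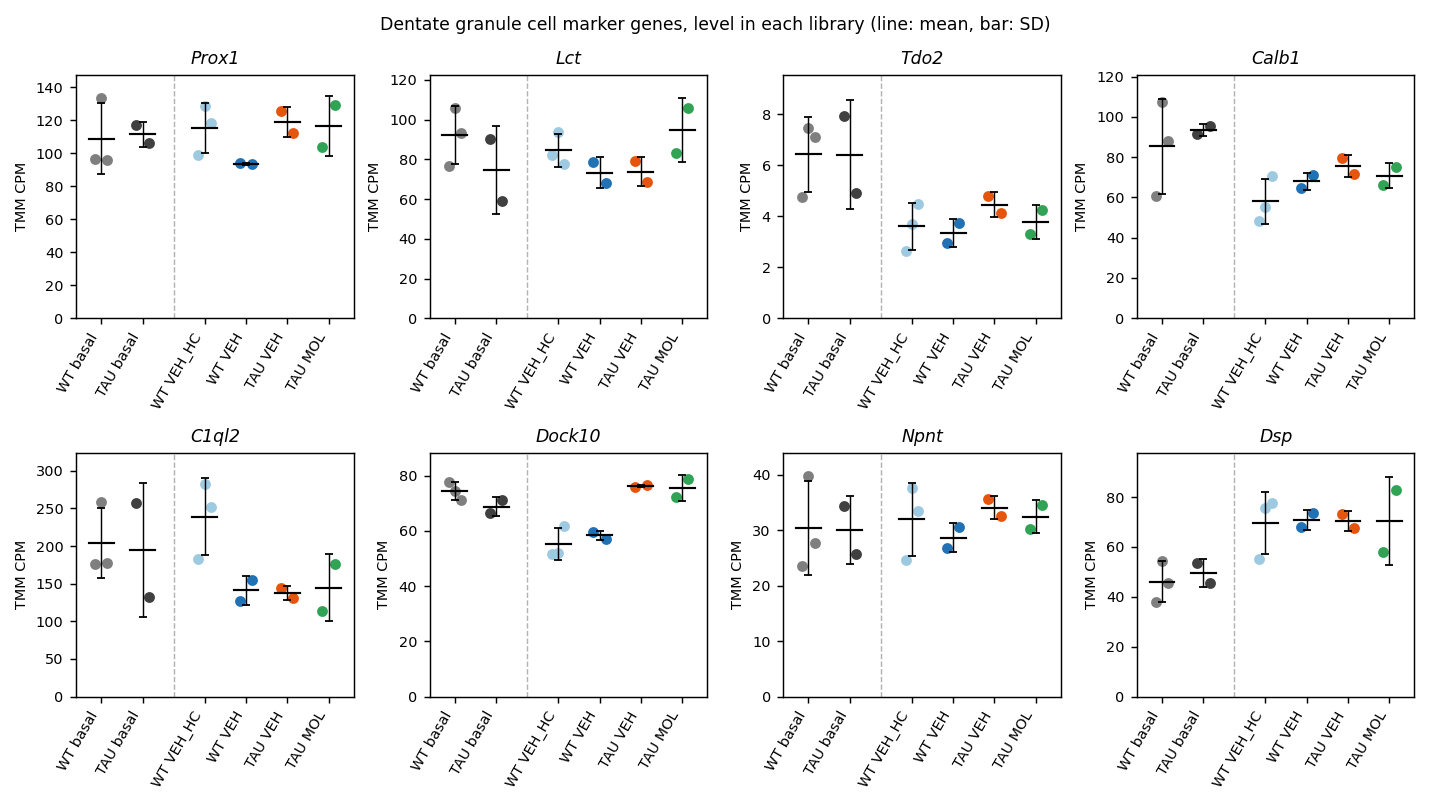
Level of each of the 8 genes in every library, in TMM-scaled CPM (linear axis from 0), with 1 point per library, the group mean as a line and the SD as a bar. The dashed line separates the basal table (left) from the learning table (right). The C1ql2 panel shows the 3 home cage libraries between 182.7 and 283.2 CPM, and the Dock10 panel shows the 4 trained THY-Tau22 libraries between 72.3 and 78.8 CPM, above all 5 WT libraries of the learning experiment.

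The comparison of trained with home cage WT mice asked what spatial learning does to hippocampal transcripts. In this comparison C1ql2 was the called gene among the 8, and it was lower after training. A gene is called here where edgeR's adjusted p was below 0.05 and the absolute log2 fold change above 0.2, the limits that the study used. C1ql2 was at 182.7, 283.2 and 251.4 CPM in the home cage libraries and at 127.5 and 154.5 CPM in the trained WT libraries. The groups did not overlap, with means of 239.1 ± 51.4 CPM in home cage (SD, n = 3) and 141.0 ± 19.1 CPM after training (SD, n = 2). The log2 fold change was -0.76 (SE 0.19, 95% interval -1.18 to -0.34, edgeR adjusted p = 0.0368). The 1 of 8 called compares with 8.4% of the 16820 genes tested that were called in this comparison (3.05% lower and 5.35% higher).

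Prox1 showed the same direction as C1ql2 but was not called. It was at 99.1, 128.7 and 118.1 CPM in home cage and at 94.1 and 93.3 CPM in trained WT libraries. The trained libraries sat next to each other, below all 3 home cage libraries, at a log2 fold change of -0.30 (SE 0.11, 95% interval -0.55 to -0.05, edgeR adjusted p = 0.114). C1ql2 and Prox1 were thus the 2 of 8 genes whose trained libraries all lay below the home cage ones, an arrangement that 20.8% of all genes tested had. The 6 other genes overlapped between these groups, and the median over the 8 genes was -0.14 on the log2 scale. Their log2 fold changes ran from -0.21 for Lct (84.6 ± 8.25 CPM in home cage, 73.4 ± 7.76 after training) to 0.22 for Calb1 (58.1 ± 11.2 against 67.9 ± 4.41). The ratio of C1ql2 to Prox1 CPM, which does not depend on the scaling of the library, was 1.84 to 2.20 in home cage and 1.36 and 1.66 in trained WT libraries. In the THY-Tau22 libraries it was 1.15 and 1.17 with CSP alone and 1.09 and 1.36 with CSP-TTK21, so all 6 trained libraries lay below all 3 home cage ones.

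Markers of the choroid plexus, the epithelium of the ventricles that adjoins the hippocampus, also differed between trained and home cage WT libraries. All 14 of 14 were called higher in WT VEH than in WT VEH_HC libraries (median log2 fold change 3.21), and none was at 0 in any library. Their summed level was 160 to 416 CPM in WT VEH_HC, 2192 to 3145 in WT VEH, 463 to 545 in TAU VEH libraries and 1072 to 1184 in those of TAU MOL. The C1ql2 means of these groups were 239.1, 141.0, 137.9 and 144.7 CPM in the same order. With the mean log2 level of these markers as a covariate, the C1ql2 difference was -0.39 and was not called (edgeR adjusted p = 0.966), and no gene of all those tested was called under this covariate, against 819 at an unadjusted p below 0.05. In bulk tissue, fewer granule cells and less RNA of a gene per granule cell cannot be told apart.

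The exon GC content of C1ql2 is 63.4%, above the median of 50.0% of the genes tested, and the libraries differed in how their counts followed GC content. Across genes, the rank correlation between exon GC content and the deviation of a library from the mean of all libraries was 0.414 to 0.455 in WT VEH_HC, 0.085 to 0.275 in WT VEH, -0.617 to -0.410 in TAU VEH libraries and -0.472 to -0.396 in those of TAU MOL. After a correction of each library for GC content and length, the C1ql2 difference was -0.70 and was still called (edgeR adjusted p = 0.0482). The call was lost without WT VEH replicate 1 (-0.63) and without WT VEH replicate 2 (-0.91). It was lost too with the libraries of these 2 groups alone in the fit (-0.76, edgeR adjusted p = 0.0509). Over all genes the calls fell from 1413 to 310 in that fit, and they fell without either WT VEH library. The C1ql2 call was kept without each of the home cage libraries (-0.92 to -0.62).

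**Figure D2:**
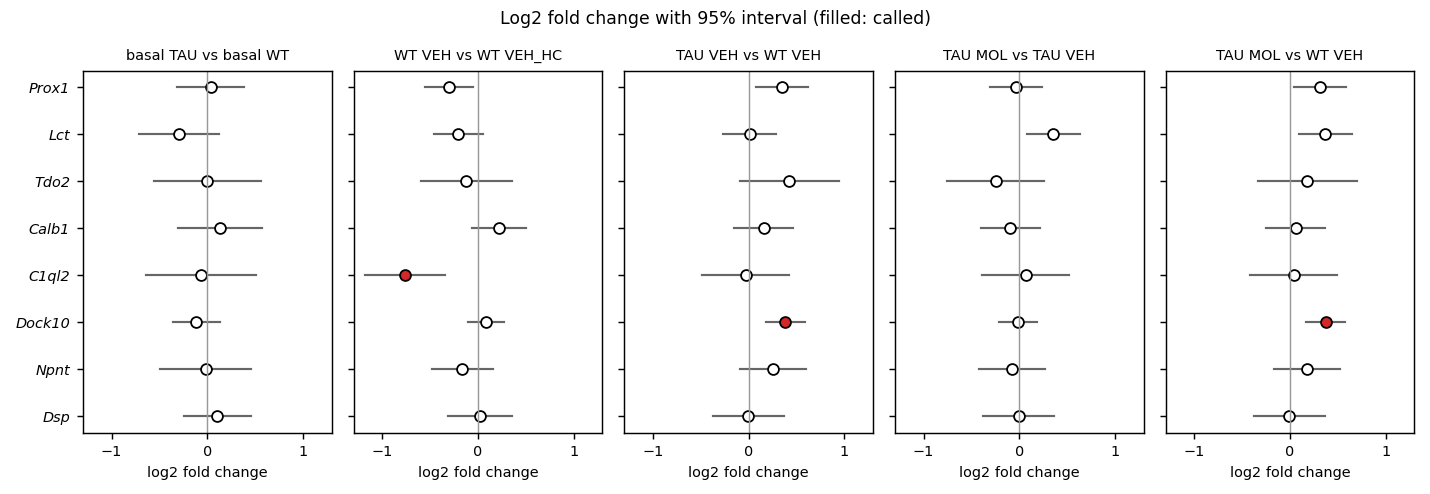
Log2 fold change (x axis) of the 8 genes (y axis) in each of the 5 comparisons, with the 95% interval as a line and filled points for called genes. C1ql2 is at -0.76 in WT VEH vs WT VEH_HC and Dock10 at 0.38 and 0.37 in the comparisons of TAU VEH and TAU MOL with WT VEH, and all other points are open.

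The comparison of trained THY-Tau22 with trained WT mice asked how the pathology alters the trained hippocampus. In this comparison Dock10 was the called gene among the 8, and it was higher in TAU VEH. Dock10 was at 59.6 and 57.2 CPM in WT VEH and at 76.0 and 76.4 CPM in TAU VEH libraries. The groups had means of 58.4 ± 1.69 and 76.2 ± 0.327 CPM (SD, n = 2 each) and did not overlap. The log2 fold change was 0.38 (SE 0.09, 95% interval 0.18 to 0.59, edgeR adjusted p = 0.0169). The home cage WT libraries, at 51.4, 52.0 and 61.9 CPM, also lay below the TAU VEH libraries. The 1 of 8 called compares with 14.4% of the 16820 genes tested that were called here (3.61% higher and 10.8% lower).

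Prox1 was at 125.3 and 112.4 CPM in TAU VEH libraries, above the 94.1 and 93.3 CPM of WT VEH, with a log2 fold change of 0.34 (SE 0.12, 95% interval 0.07 to 0.62) that was not called (edgeR adjusted p = 0.0914). TAU VEH and home cage WT libraries overlapped for Prox1. Tdo2 (log2 fold change 0.43, SE 0.24), Npnt (0.25, SE 0.16) and Calb1 (0.16, SE 0.14) also had both TAU VEH libraries above both WT VEH ones and were not called. With Dock10 and Prox1 these are 5 of 8 genes, against 28.5% of all genes tested with both TAU VEH libraries on top. Over the 8 genes the median difference was 0.21 on the log2 scale, and over all genes it was 0.00406. Lct (0.01), Dsp (-0.00155) and C1ql2 (-0.03) overlapped between the groups. After the correction for GC content and length the C1ql2 difference was 0.33, with the sign turned (95% interval -0.09 to 0.75, edgeR adjusted p = 0.424).

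The Dock10 call did not hold under every setting. It was kept under 6 of 12 alternatives and lost when any of the 4 libraries compared was left out (0.35 to 0.42). It was also lost after the correction for GC content and length (0.26, edgeR adjusted p = 0.188). Over all genes the calls fell from 2423 to 484 with that correction, and they fell in each fit without 1 library. Dock10 has an exon GC content of 45.2%, below the median of the genes tested. With the choroid plexus covariate its difference was 0.78 and was not called (edgeR adjusted p = 0.306), and neither was any other gene tested. Without the covariate, all 14 choroid plexus markers were called lower on the TAU VEH side (median -2.29). Prox1 (exon GC 51.2%) was at 0.36 after the GC correction and was called under 4 of 12 alternatives, with DESeq2, with library size alone, with no low-count filter, and with these 2 groups alone.

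**Figure D3:**
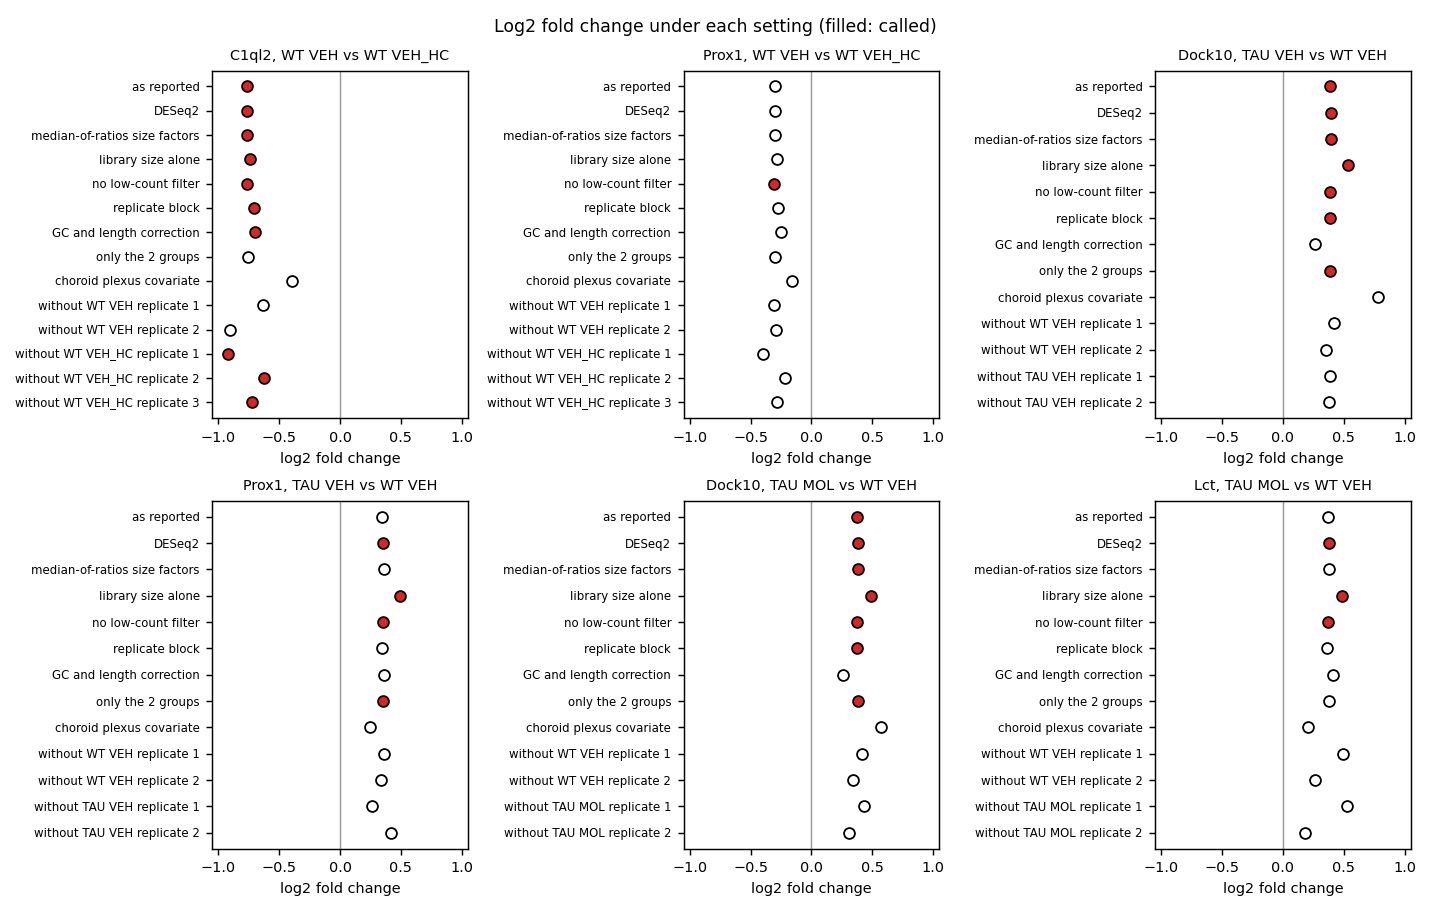
Log2 fold change (x axis) of C1ql2, Dock10, Prox1 and Lct in 6 gene and comparison pairs under each processing setting (y axis), filled where called. The direction of each pair is the same in every setting shown, from -0.92 to -0.39 for C1ql2 after training and from 0.26 to 0.78 for Dock10 in TAU VEH against WT VEH, while the call changes.

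CSP-TTK21 was given to ask whether it shifts transcripts of trained THY-Tau22 mice, and TAU MOL and TAU VEH libraries were compared for this. None of the 8 genes was called, and no gene of all 16820 tested was (0%), against 1064 at an unadjusted p below 0.05 and 54 called by DESeq2. Lct was the gene of the 8 that separated. It was at 79.1 and 68.6 CPM with CSP alone and at 83.4 and 106.1 CPM with CSP-TTK21. The log2 fold change was 0.36 (SE 0.13, 95% interval 0.08 to 0.63, unadjusted p = 0.0166, edgeR adjusted p = 0.652), and 1 of 8 genes with both TAU MOL libraries on top compares with 21.5% of all genes. Lct was called in this comparison under 1 of 12 alternatives, the fit with no low-count filter, in which 233 of 25933 genes were called. Dock10 was at 72.3 and 78.8 CPM after CSP-TTK21, around its TAU VEH values, with a log2 fold change of -0.01 and an interval from -0.21 to 0.19. Prox1 differed by -0.03 (95% interval -0.30 to 0.24) and C1ql2 by 0.07 (95% interval -0.39 to 0.52), and libraries of both groups overlapped for each.

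Set against WT VEH, TAU MOL had Dock10 as its called gene (75.6 ± 4.60 against 58.4 ± 1.69 CPM, log2 fold change 0.37, SE 0.09, edgeR adjusted p = 0.0392). Here 5.63% of the genes tested were called (0.612% higher and 5.02% lower). This comparison shares the WT VEH libraries with the one of TAU VEH, so both Dock10 results rest on the same control and are not independent. The call was lost when any of the 4 libraries was left out (0.31 to 0.43). It was also lost after the correction for GC content and length (0.26, edgeR adjusted p = 0.311). The same held with the choroid plexus covariate (0.57, edgeR adjusted p = 0.190). Over all genes the calls fell from 947 to 25 with that correction and to 2 with the covariate. They also fell in each fit without 1 of the 4 libraries, so the loss was not particular to Dock10. Lct (0.37, SE 0.13, adjusted p = 0.125) and Prox1 (0.31, SE 0.12, adjusted p = 0.180) were not called. Together with Dock10 they were the 3 of 8 genes with both TAU MOL libraries above both WT VEH ones, against 25.6% of all genes. C1ql2 was at 113.5 and 176.0 CPM in TAU MOL libraries, a range that held both WT VEH values, and 8 of the 14 choroid plexus markers were called lower in TAU MOL than in WT VEH.

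In resting mice no difference between THY-Tau22 and WT was called among the 8 genes, where 4 of 16324 genes (0.0245%) were called in all and none of the 8 genes had an unadjusted p below 0.05. In simulated data, the fit recovered 8.5% of 200 genes changed by 0.5 on the log2 scale in this comparison. In TAU VEH vs WT VEH it recovered 52% of such genes. Dock10 was at 77.6, 74.5 and 71.2 CPM in WT and at 66.3 and 71.3 CPM in THY-Tau22 libraries, a log2 fold change of -0.11 (SE 0.11, 95% interval -0.36 to 0.13). The sign was opposite to the trained comparison, and the difference between the comparisons was not tested, since the tables were fitted apart. C1ql2 was at 175.8, 257.9 and 177.9 CPM in WT and at 257.3 and 132.0 CPM in THY-Tau22 libraries. The THY-Tau22 libraries thus spanned nearly the whole range of the WT ones and more, and the interval of the C1ql2 difference ran from -0.64 to 0.51. The rank correlation with exon GC content was 0.481 in the THY-Tau22 library with the higher and -0.600 in the one with the lower C1ql2 level. Choroid plexus markers summed to 704 CPM in the former, 1993 CPM in the latter and 596 to 714 CPM in WT libraries. The part of either in the C1ql2 level was not tested. Prox1 was at 96.6, 133.7 and 96.1 CPM in WT and at 116.9 and 106.0 CPM in THY-Tau22 libraries (0.03, 95% interval -0.31 to 0.38). The largest difference in size was that of Lct, at -0.30 (SE 0.19, 95% interval -0.72 to 0.12, edgeR adjusted p = 0.901), with 76.8, 106.1 and 93.3 CPM in WT and 90.5 and 59.2 CPM in THY-Tau22 libraries. The genotypes overlapped for all 8 genes, while 18.5% of all genes tested had no overlap.

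Npnt, Dsp, Tdo2 and Calb1 were called in none of the 5 comparisons. Npnt ran from 24.7 to 37.6 CPM over the learning libraries and from 23.5 to 39.8 over the basal ones, and Dsp from 55.3 to 82.8 and from 38.1 to 54.4. Tdo2, the gene with the fewest counts, ran from 2.64 to 4.80 CPM in the learning and from 4.75 to 7.94 in the basal table. Calb1 was at 48.5, 55.4 and 70.5 CPM in WT VEH_HC, at 64.8 and 71.0 in WT VEH, at 79.5 and 71.7 in TAU VEH libraries and at 66.3 and 75.3 in those of TAU MOL. Each trained group overlapped with its neighbour in the order of means, TAU VEH, TAU MOL, WT VEH and WT VEH_HC. The settings that called Calb1 higher in trained than in home cage WT mice were the replicate block and the fit without WT VEH_HC replicate 3.

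In the order of group means of the learning experiment, 3 of 24 pairs of neighbours did not overlap, where 32.8% of such pairs over all genes tested did not. These were WT VEH_HC above WT VEH for Prox1, WT VEH_HC above TAU MOL for C1ql2, and TAU MOL above WT VEH for Dock10. All other neighbours overlapped for the 8 genes. The highest mean was that of TAU VEH for Prox1, Dock10, Npnt, Tdo2 and Calb1, of WT VEH_HC for C1ql2, of TAU MOL for Lct and of WT VEH for Dsp, where the 4 means lay within 69.5 to 70.6 CPM.

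Libraries of the same group often differed from each other in the same direction for most of the 8 genes. Of the pair of TAU MOL libraries, replicate 2 was the higher one for 8 of 8 genes, where it was the higher one for 52.3% of all genes tested. TAU VEH replicate 1 was the higher of its pair for 7 of 8 genes (49.4% of all genes), WT VEH_HC replicate 1 was the lowest of 3 for 7 of 8 genes (31.9%), and basal WT replicate 2 the highest of 3 for 7 of 8 genes (37.8%). The WT VEH libraries were split, with replicate 2 the higher one for 5 of 8 genes (48.8%). These genes were not independent counts of a difference, since they share the library and the cell type.

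**Figure D4:**
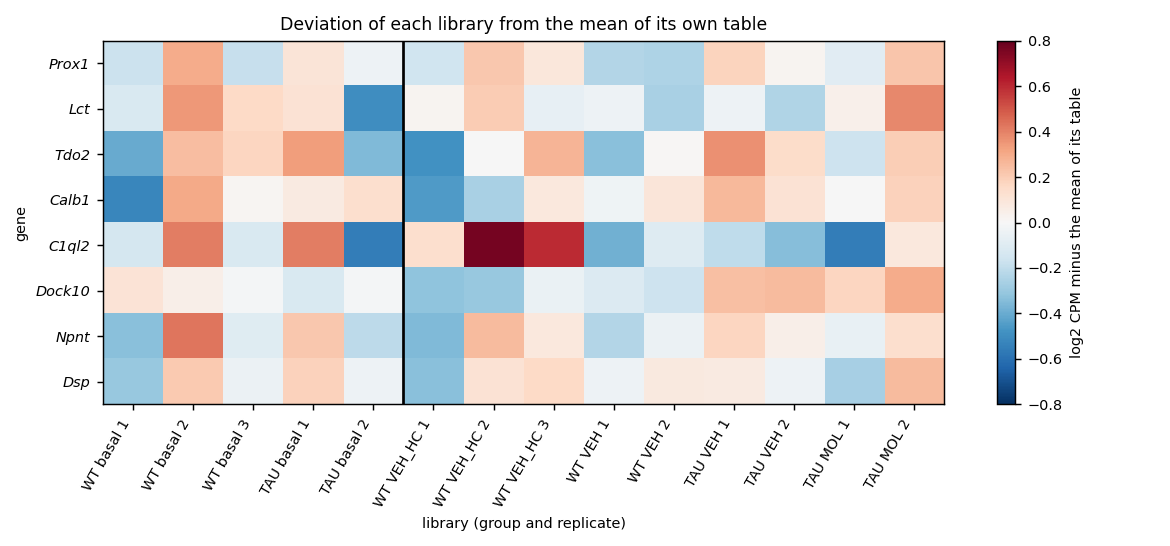
Log2 CPM of each gene (rows) in each of the 14 libraries (columns), as the difference from the mean of its own table, with red above and blue below that mean. The black line separates the basal from the learning table. The columns of basal WT 2 and TAU MOL 2 are red for all 8 genes, and the C1ql2 row reaches 0.77 in WT VEH_HC replicate 2 and -0.55 in TAU basal replicate 2 and TAU MOL replicate 1.

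Of 13 further genes known from granule cells, 3 were called lower in trained than in home cage WT mice and none higher (median log2 fold change -0.21, against -0.00280 for all genes), where 3.05% of all genes tested were called lower. They were Glis3 (-0.57), a zinc finger transcription factor, Trpc6 (-0.53), a cation channel, and Sema5a (-0.44), a semaphorin. Sema5a was at 145.4, 180.2 and 168.3 CPM in WT VEH_HC and at 124.0 and 118.8 CPM in WT VEH libraries. Its groups did not overlap, as for Prox1 and C1ql2. In TAU VEH, 2 of the 13 genes were called higher than in WT VEH and none lower (median 0.31), where 3.61% of all genes were called higher and 14.4% in either direction. They were Rfx3 (0.65), a transcription factor of the RFX family, and Sema5a (0.49). Sema5a was at 182.9 and 156.9 CPM in TAU VEH libraries and at 150.3 and 189.1 CPM in those of TAU MOL, and it was the 1 of 13 called against WT VEH in TAU MOL (0.48), where 0.612% of all genes were called higher. None of the 13 was called between TAU MOL and TAU VEH or in resting mice. The comparisons against WT VEH share the same 2 libraries, and so does the training comparison.

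Counts of called markers of other hippocampal neurons are read against the shares of all genes tested, 5.35% called higher and 3.05% lower after training, 3.61% higher and 10.8% lower in TAU VEH, and 0.612% higher and 5.02% lower in TAU MOL against WT VEH. Of 6 CA1 pyramidal markers, none was called after training, and 3 were called lower in TAU VEH (Wfs1 -0.92, Fibcd1 -0.76, Mpped1 -0.70), with a list median of -0.60 where the 8 dentate genes had 0.21. In TAU MOL against WT VEH the CA1 marker called was Fibcd1 (-0.48), with a list median of -0.13 and 2 of 6 positive. Of 11 CA2 and CA3 markers, 1 was called higher and 1 lower after training (Amigo2 0.56, Grik4 -0.47), with a list median of 0.04. In TAU VEH 1 was called higher (Pvrl3 0.33), while the list median was -0.16 and 7 of 11 were negative. In TAU MOL against WT VEH 2 were called lower (Bok -0.51, Rgs14 -0.47), with a list median of -0.17 and 2 of 11 positive. Of 7 interneuron markers, 2 were called higher after training (Vip 0.59, Pvalb 0.51), with a list median of -0.05 and 4 of 7 negative. In TAU VEH 2 were called lower (Slc32a1 -0.42, Pvalb -0.40), with a list median of -0.18 and 3 of 7 positive. Among 6 mossy cell markers and 9 markers of immature neurons and neurogenesis none was called in any of the 5 comparisons. The called list genes are those of the edgeR fit to all 9 learning libraries and are not given under the alternatives. In TAU VEH vs WT VEH the calls over all genes fell from 2423 to 484 after the correction for GC content and length. With the choroid plexus covariate no gene was called there. The difference between lists was not tested.

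Lists for glia, adjoining regions and neurons at large held called genes and genes of the opposite sign. Of 5 astrocyte markers, Gfap (0.70) and Aqp4 (0.37) were called higher in TAU VEH than in WT VEH (list median 0.15), and Gfap was called higher in TAU MOL (0.68, list median 0.08). Of 6 microglial markers, Tmem119 was called lower in TAU VEH (-0.35) and in TAU MOL (-0.38), while 4 of the 6 had a positive difference in each and the list medians were 0.07 and 0.07. P2ry12, of the same list, was called higher after training (0.53, list median 0.11, 2 of 6 negative). Of 5 neocortical markers, with a list median of -0.43 in TAU VEH, Fezf2 (-0.68) and Cux2 (-0.43) were called lower there, and Fezf2 was called lower in TAU MOL (-0.45, list median -0.13). Of 5 thalamic markers, Lef1 was called lower in TAU VEH (-0.74), with a list median of -0.03 and 2 of 5 positive. Of 4 pan-neuronal markers tested, Rbfox3, which encodes NeuN, was called lower in TAU VEH (-0.33), with a list median of -0.01 and 2 of 4 positive. No marker of oligodendrocytes (5 genes) or endothelium (4 genes) was called in any comparison. The part of these cell types in the levels of the 8 granule cell genes was not tested.

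The genes whose log2 CPM ran most like the mean of the 8 over the 9 learning libraries, among 12422 genes with a mean count of at least 100, were Stxbp6 (Pearson r = 0.97), Snhg4 (0.92) and Neurod1 (0.91). Stxbp6 and Neurod1 are among the 13 further granule cell genes. For Prox1 alone they were Sema5a (0.97), Stxbp6 (0.97) and Jun (0.95), and for Calb1 alone Wtap (0.97), Ccdc58 (0.96) and Dynlt3 (0.96). Within the 8 genes, r with Prox1 ran from 0.29 for Calb1 to 0.85 for Npnt, and r of Calb1 with C1ql2 was -0.35 and with Dock10 0.80. These values describe 9 libraries that share depth, GC profile and group, and carry no test.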

How the data were processed

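Dorsal hippocampal RNA was sequenced as 50-base reads, aligned to mm9 with TopHat2 2.0.10 and Bowtie2 2.1.0, and counted per gene with HTSeq 0.5.4p3 by the authors. The deposited tables hold raw counts per gene and the authors' normalized values (a signal, counts divided by size factors, used only to check the columns). Library totals ran from 28639121 to 37681155 counts in the basal and from 24693713 to 52180305 in the learning table. Counts were filtered with filterByExpr and TMM-scaled, and the quasi-likelihood test of edgeR 4.0.16 (R 4.3.3) with Benjamini-Hochberg adjustment over all genes was fitted to the 5 basal libraries and, apart, to all 9 learning libraries, which share 1 estimate of the spread. A call needed an adjusted p below 0.05 and a log2 fold change beyond 0.2 in either direction. The 8 genes and all lists were chosen with earlier results of these data known. All 8 genes are named, and of the lists those that were called, except 1 gene that is not reported here. The fit was tested on simulated data. Alternatives were DESeq2 1.42.0, other scalings, no filter, a correction for GC content and length, a choroid plexus covariate, 2 groups alone, a replicate block, and leaving out each library.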

Additional observations from a re-analysis of the deposited data

How the results depend on the processing

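The direction of the called differences, C1ql2 after training and Dock10 in both comparisons with WT VEH, held under every alternative run, while the calls did not. The number of the 8 genes called in TAU VEH vs WT VEH was 1 (Dock10) and became 2 with DESeq2, 2 with library size alone and 2 with no low-count filter (each time Prox1 was added), 3 with only the 2 groups fitted (Prox1 and Npnt added), 0 after the correction for GC content and length, 0 with the choroid plexus covariate, and 0 in each fit that leaves out 1 library. In TAU MOL vs WT VEH it was 1 and became 2 with DESeq2 (Lct added), 3 with library size alone and 3 with no low-count filter (Lct and Prox1 added), 0 after the correction for GC content and length, 0 with the choroid plexus covariate, and 0 in each fit without 1 library. In TAU MOL vs TAU VEH it was 0 and became 1 with no low-count filter (Lct), where the calls over all genes rose from 0 to 233. After training it was 1 (C1ql2) and became 2 with no low-count filter (Prox1 added), 0 with only the 2 groups fitted, 0 with the choroid plexus covariate, and 0 to 2 without 1 library, 0 without either WT VEH library and 2 without WT VEH_HC replicate 3 (Calb1 added). Over all genes, calls in TAU VEH vs WT VEH went from 2423 to 3399 with only the 2 groups fitted. They were 484 after the GC and length correction and 0 with the covariate. In TAU MOL vs WT VEH they went from 947 to 25 after that correction and 2 with the covariate. After training they went from 1413 to 310 with only the 2 groups, 0 with the covariate and 2798 without WT VEH_HC replicate 3. In these comparisons, fits with 1 library left in a group had fewer calls. The causes were not tested. With 1 library left in a group, its spread was taken from the other groups. Without the low-count filter the spread estimate changes for every gene, and the adjusted p of C1ql2 after training fell to 1.3e-20. Library size alone moved the median of all genes to 0.15 in TAU VEH vs WT VEH and 0.12 in TAU MOL vs WT VEH, and the calls there from 608 higher and 1815 lower to 2578 higher and 1020 lower, and from 103 higher and 844 lower to 757 higher and 326 lower.

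Differences that were not called often lay near 0 and changed sign. With DESeq2 the sign changed for Dsp (0.0096) in TAU VEH vs WT VEH and for Dsp (0.0040) in TAU MOL vs WT VEH. With median-of-ratios size factors it changed for Dsp (0.013) in TAU VEH vs WT VEH and for Dsp (0.0046) in TAU MOL vs WT VEH. With library size alone it changed for Npnt (0.0016) in resting mice, for Dsp (0.15) and C1ql2 (0.12) in TAU VEH vs WT VEH and for Dsp (0.11) in TAU MOL vs WT VEH. With no low-count filter it changed for Tdo2 (-0.00079) in resting mice and for Dsp (0.0036) in TAU VEH vs WT VEH. After the correction for GC content and length it changed for Tdo2 (-0.072) and Calb1 (-0.0083) in resting mice, for Dsp (0.0066) and C1ql2 (0.33) in TAU VEH vs WT VEH, for C1ql2 (-0.059) in TAU MOL vs TAU VEH and for Calb1 (-0.082) in TAU MOL vs WT VEH. With only the 2 groups fitted it changed for Dsp (0.0063) in TAU VEH vs WT VEH and for Dsp (0.0022) in TAU MOL vs WT VEH. With the choroid plexus covariate it changed for Dsp (0.094) and Lct (-0.31) in TAU VEH vs WT VEH, for Prox1 (0.015) in TAU MOL vs TAU VEH, for Dsp (0.041) and C1ql2 (-0.089) in TAU MOL vs WT VEH and for Dsp (-0.12), Lct (0.27), Npnt (0.044), Dock10 (-0.50) and Calb1 (-0.46) after training.

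Leaving out 1 library at a time gave ranges that cross 0 for Prox1 (-0.046 to 0.23), C1ql2 (-0.60 to 0.34), Tdo2 (-0.36 to 0.30), Npnt (-0.22 to 0.25) and Calb1 (-0.049 to 0.35) in resting mice, for Dsp (-0.065 to 0.055), C1ql2 (-0.16 to 0.11) and Lct (-0.10 to 0.13) in TAU VEH vs WT VEH, for Prox1 (-0.20 to 0.12), Dsp (-0.29 to 0.23), C1ql2 (-0.28 to 0.35), Npnt (-0.17 to 0.019) and Dock10 (-0.074 to 0.050) in TAU MOL vs TAU VEH, for Dsp (-0.29 to 0.23), C1ql2 (-0.31 to 0.32), Tdo2 (-0.0086 to 0.36) and Calb1 (-0.035 to 0.15) in TAU MOL vs WT VEH and for Dsp (-0.12 to 0.11) and Tdo2 (-0.30 to 0.062) after training.

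Replicate numbers are shared between groups, but the labels name no shared animal, litter or day, and the correlation of the deviations of same-numbered libraries ran from -0.16 to 0.24. With the replicate block, 2 of the 8 genes were called after training (Calb1 added), no other call of the 8 changed, and the sign changed for Prox1 (-0.030) in resting mice, for Dsp (0.011) in TAU VEH vs WT VEH and for Tdo2 (0.071) after training. The block moved the calls over all genes from 1413 to 3000 after training and from 4 to 37 in resting mice.

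The fewest counts behind a value were those of Tdo2, 104 to 260 per library.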
